A study of Mus musculus with 2 samples.

Results

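Isolated covered CpGs are CpG dinucleotides that were read on their own, with no other covered CpG within 200 bp on the same chromosome. They were found among the positions that reduced representation bisulfite sequencing (RRBS) had measured in both libraries of the study, one of wildtype (wt) and one of ESR2 -/- (βerko) mouse embryonic fibroblasts (MEFs). The cytosines of both strands of a CpG were merged before distances were taken. Of 826937 covered positions, 38576 (4.66 %) were isolated, and they represented 38114 of 756270 covered CpGs (5.04 %). The median distance from an isolated position to the nearest other covered CpG was 3371 bp, with quartiles of 828 and 10304 bp.

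Both libraries were made from MEFs of C57BL/6 mice, and the βerko MEFs lacked a functional gene for oestrogen receptor β (ERβ), a ligand-activated transcription factor. Each library held the pooled DNA of 3 batches of MEFs. There were no replicates, so no spread between cultures or animals can be given, and a difference between the libraries cannot be told apart from a difference between pools. Methylation values can identify neither the cell type nor the gene knockout. Covered promoter positions of fibroblast markers were methylated to 22.9 % on average in wt and to 15.5 % in βerko MEFs (39 positions), those of blood and endothelial markers 14.3 and 11.7 % (21 positions), those of epithelial markers 31.5 and 18.3 % (45 positions) and those of pluripotency markers 57.8 and 42.4 % (28 positions).

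Methylation of cytosine in CpGs is set by DNA methyltransferases and copied to the new strand after replication. In most of the mammalian genome CpGs are sparse and methylated, whereas CpG islands, dense stretches that often overlap promoters, are usually free of methylation. RRBS enriches the dense part, because MspI cuts at CCGG irrespective of CpG methylation and short fragments are selected. A fragment end is itself a CpG, so that a fragment from a CpG-poor region can yield the single CpG of its MspI site.

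This was the composition of the isolated positions. The CpG of an MspI site accounted for 99.3 % of them (38297 positions), in comparison to 36.2 % of the other covered positions. The median number of further CpGs that the reference genome holds within 200 bp was 5 (quartiles 3 and 7) at isolated positions and 26 (10 and 42) at the others. The windows were also poorer in G and C, with a mean of 49.1 % in comparison to 62.2 %. Hence, isolated positions lay in CpG-poor sequence, and most had neighbouring CpGs in the genome that were not covered. Of the 38297 positions at an MspI site, 74.4 % had the next MspI site within 200 bp. Isolated positions were predominantly intergenic (47.6 %, other positions 20.3 %) or intronic (40.9 and 26.8 %), rarely exonic (8.20 and 21.8 %), and only 3.24 % were in promoters, taken as 500 bp before to 100 bp after a transcription start site (TSS), in comparison to 31.0 % of the others. The median distance to a TSS was 15765 bp for isolated and 556 bp for other positions.

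The reference sequence around isolated CpGs with large differences shows this setting. The following 102 bp windows, from the plus strand of NCBIM37 (mm9), surround the first 4 CpGs in introns or between genes in each direction, ordered by the p-value described further on. Every CpG and its MspI site are in capitals. Of these 8 windows, 7 contained a single CpG, the one at the MspI site. The first 4 windows surround CpGs with lower methylation in βerko MEFs, at chr15:51562804-51562905 (nearest gene Eif3h), chr3:99065207-99065308 (intron of Tbx15), chr12:65661391-65661492 (nearest gene Fscb) and chr8:14495646-14495747 (intron of Dlgap2).
Eif3h, nearest gene: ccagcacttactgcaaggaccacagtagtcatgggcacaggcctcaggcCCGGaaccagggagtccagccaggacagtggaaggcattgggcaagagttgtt
Tbx15: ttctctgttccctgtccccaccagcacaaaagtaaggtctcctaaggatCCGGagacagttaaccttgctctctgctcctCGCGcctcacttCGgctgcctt
Fscb, nearest gene: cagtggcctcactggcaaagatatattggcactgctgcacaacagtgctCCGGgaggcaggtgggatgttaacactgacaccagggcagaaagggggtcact
Dlgap2: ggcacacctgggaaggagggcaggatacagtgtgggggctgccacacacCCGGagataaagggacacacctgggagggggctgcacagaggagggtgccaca

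The other 4 surround CpGs with higher methylation in βerko MEFs, at chr5:35423618-35423719 (intron of Dok7), chr4:60097389-60097490 (intron of Mup2), chr9:57748910-57749011 (nearest transcript AK142199) and chr4:55210110-55210211 (intron of Gm12508).
Dok7: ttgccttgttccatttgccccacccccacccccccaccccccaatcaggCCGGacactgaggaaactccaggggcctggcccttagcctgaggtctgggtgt
Mup2: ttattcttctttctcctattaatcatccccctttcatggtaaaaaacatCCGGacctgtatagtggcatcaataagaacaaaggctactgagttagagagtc
AK142199, nearest transcript: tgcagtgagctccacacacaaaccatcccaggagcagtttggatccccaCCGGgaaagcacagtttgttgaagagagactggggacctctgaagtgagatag
Gm12508: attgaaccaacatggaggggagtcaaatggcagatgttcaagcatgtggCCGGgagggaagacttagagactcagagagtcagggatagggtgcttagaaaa

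Isolated CpGs were mostly methylated in both cell types. The 38576 positions had average levels of 76.1 % (wt) and 78.8 % (βerko), and the medians were 92.5 and 94.5 %. In wt MEFs 63.9 % of them (95 % Wilson interval 63.4 to 64.3 %) were above 80 % methylation, 26.6 % were between 20 and 80 %, and 9.59 % (9.30 to 9.88 %) were below 20 %. In βerko MEFs 66.8 % (66.3 to 67.2 %) were above 80 %, 25.1 % were between, and 8.12 % (7.85 to 8.40 %) were below 20 %. Complete methylation, a value of 100 %, was recorded at 27.9 % of isolated positions in wt and 34.4 % in βerko MEFs. Averages of the other covered positions were 39.0 % (wt) and 36.9 % (βerko). In neighbourhoods with at least 10 covered CpGs within 200 bp, which held 388664 positions, the means were 11.9 and 8.45 %. The mean therefore was higher in βerko than in wt MEFs at isolated positions, and lower in the remainder.

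**Figure D1:**
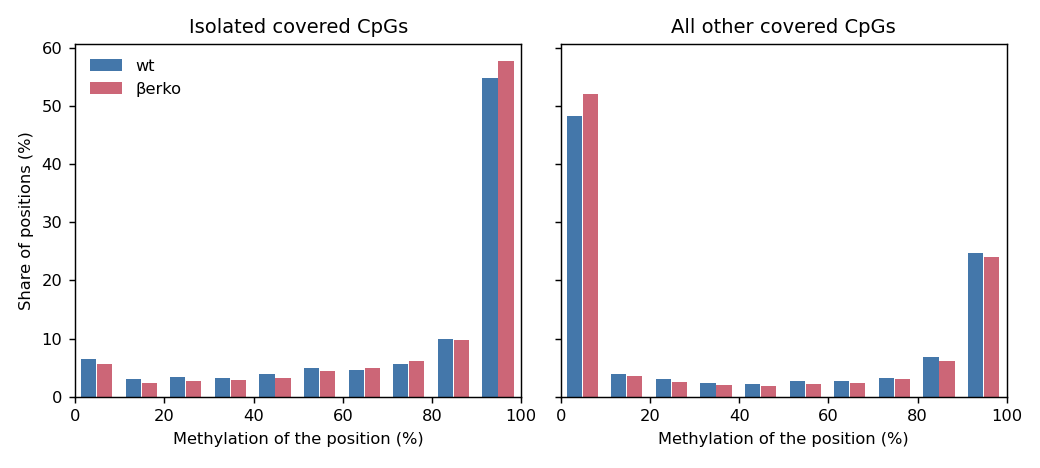
Distribution of methylation levels at the 38576 isolated positions (left) and the 788361 other covered positions (right). The x axis is the methylation level in steps of 10 %, the y axis the share of positions in percent, and bars are the wt and βerko libraries. Isolated positions form 1 large peak at the methylated end, which is higher in the βerko library, whereas the other positions have their largest peak at the unmethylated end.

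Values on either side of the distance limit were close. Positions just inside the limit, with the nearest covered CpG at 201 to 220 bp (3176 positions), had means of 74.4 % (wt) and 77.0 % (βerko). Those just outside, at 181 to 200 bp (4664 positions), had means of 75.4 and 77.3 %.

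To describe the balance of changes, a position was termed a loss when its methylation was lower in βerko than in wt MEFs by more than 20 percentage points, and a gain when it was higher by more than 20 points. These terms refer to the 2 libraries, since read counts were deposited for only part of the positions and no test could be made for the remainder. Of the isolated positions, 4589 (11.9 %) were losses and 6442 (16.7 %) were gains. Among all covered positions, losses made up 10.2 % and gains 6.6 %. Gains thus outnumbered losses by 1.40 to 1 and made up 58.4 % of the changed isolated positions (57.5 to 59.3 %). At the other covered positions the balance was the opposite, with 79400 losses and 48175 gains, or 1.65 losses per gain. The intervals treat positions as independent and cover counting error over positions only.

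Larger differences were distributed alike. A decrease of more than 50 points was seen at 1195 isolated positions (3.10 %, all covered positions 2.77 %) and an increase of more than 50 points at 1772 (4.59 %, all covered positions 1.36 %). The mean difference between βerko and wt MEFs was 2.75 points with a standard deviation of 24.9 points across isolated positions. Therefore, the shift of the mean was small relative to the scatter of single positions. The levels in the 2 libraries were correlated with a Pearson coefficient of 0.661 across isolated positions and 0.905 across the others, where most values lie near 0 or 100 %. Altogether 71.4 % of isolated and 83.8 % of other positions were within 20 points in both libraries. With the nearest covered CpG at 51 to 200 bp the share was 71.1 % and the coefficient 0.719. The lower agreement was thus not limited to isolated positions.

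The balance varied with the spacing of covered CpGs. Where the nearest covered CpG was at most 20 bp away, losses were found at 9.54 % and gains at 4.47 % of positions. Between 21 and 50 bp the shares were 11.7 and 11.4 %. At 51 to 100 bp, below the limit for isolation, gains exceeded losses with 15.9 and 13.4 %. Among isolated positions, the share of gains among changed positions was 54.4 % with a neighbour at 201 to 500 bp, 54.0 % at 501 to 1000 bp, 59.0 % at 1001 to 5000 bp and 60.7 % beyond 5000 bp. An excess of gains was accordingly not limited to isolated positions, but was also recorded at the 56267 positions with the nearest covered CpG at 51 to 200 bp (54.2 % gains), whose average level was 72.9 % (wt) and 74.3 % (βerko).

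The density of CpGs in the genome was then compared with the balance, with classes of density that were chosen after the values had been seen. At isolated positions with at most 2 further reference CpGs within 200 bp, 66.0 % of the changed positions were gains. This share was 61.8 % with 3 or 4 CpGs, 57.8 % with 5 or 6, 53.0 % with 7 to 9, 47.1 % with 10 to 14 and 33.8 % with 15 to 24. The other covered positions of the same classes had 63.8, 60.4, 56.8, 51.8, 45.0 and 30.2 % gains. The share of gains was lower with each step of density in both sets, and isolated and other positions of a class were within 4 points of each other. With 25 or more CpGs there were only 109 isolated positions, with 17 losses and 2 gains, against 18.9 % gains at the others. When the other positions were weighted to the density classes of the isolated ones, they had 11.1 % losses and 14.7 % gains, or 1.33 gains per loss. Density differed between the sets, as 89.1 % of isolated but only 22.2 % of other positions had at most 9 further CpGs. What part density, the MspI site and read depth have in the balance was not tested.

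**Figure D2:**
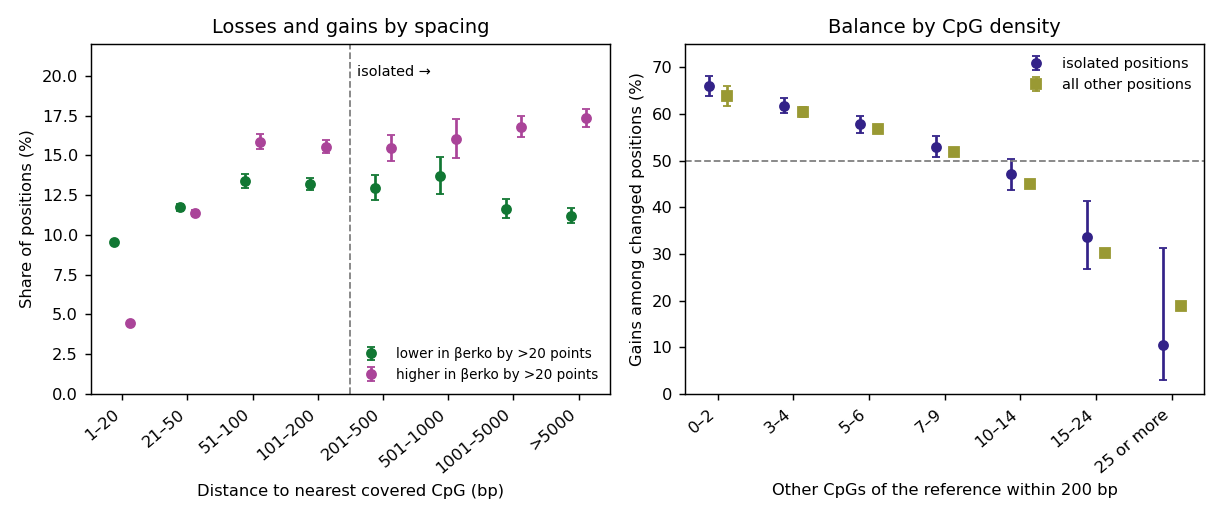
Left, share of positions (y axis, percent) that were lower or higher in βerko MEFs by more than 20 points, against the distance to the nearest covered CpG in bp, and positions right of the dashed line are isolated. Right, gains as a percentage of changed positions against the number of further reference CpGs within 200 bp, for isolated and other positions, with the dashed line at 50 %. Points are shares with 95 % Wilson intervals over positions, and the share of gains falls from 66.0 to 10.5 % with density at isolated positions and from 63.8 to 18.9 % at the others.

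The location relative to genes was examined next. In promoters, 184 isolated positions were losses and 156 were gains, so that gains made up 45.9 %. At the 1249 isolated promoter positions the average level was 56.4 % (wt) and 55.1 % (βerko), as opposed to 10.7 and 8.30 % at the other covered promoter positions. Gains made up 52.6 % of the changed isolated positions in exons, 56.8 % in introns and 61.1 % between genes. At the other covered positions gains made up 23.5 % in promoters, 29.6 % in exons, 41.0 % in introns and 48.2 % between genes. The order of the features was therefore the same in both sets. In intergenic sequence 2184 losses and 3436 gains were counted, and the means of wt and βerko MEFs were 74.4 and 78.0 %. Thus promoters were the only one of the 4 features in which losses exceeded gains among isolated positions. The intervals for promoters (40.7 to 51.2 %) and exons (49.0 to 56.1 %) included an even balance.

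Across autosomes the direction was the same, but on some the balance was near even. Gains outnumbered losses on 19 of 19 autosomes, with shares of gains between 51.5 % on chromosome 10 (229 losses, 243 gains) and 64.1 % on chromosome 7 (274 losses, 489 gains). The mean difference per autosome was between 0.668 and 4.33 points. The X chromosome had 1182 isolated positions with 146 losses and 189 gains. The Y chromosome had 23 with 1 loss and 9 gains, and the only mitochondrial position was a loss.

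Changes of state were asymmetric. Of the 3698 isolated positions below 20 % in wt MEFs, 1936 (52.4 %) remained below 20 % in βerko MEFs, 37.7 % were intermediate, and 367 (9.92 %) were above 80 %. At the other covered positions 95.6 % of those below 20 % in wt remained so, and 0.41 % were above 80 %. With the nearest covered CpG at 51 to 200 bp, 68.0 % remained so and 6.47 % were above 80 %. Among positions below 20 % in wt with at most 2 further reference CpGs, 31.3 % of isolated and 42.1 % of other positions remained so. With 5 or 6 these shares were 46.6 and 47.6 %. The contrast was thus smaller at like spacing or density. Of the 24631 isolated positions above 80 % in wt MEFs, 83.9 % remained above 80 % and 254 (1.03 %) were below 20 % in βerko MEFs. Intermediate isolated positions were above 80 % in βerko MEFs in 46.2 % of cases and below 20 % in 9.20 %. The other covered positions had 28.2 and 29.5 %, and those with the nearest covered CpG at 51 to 200 bp had 43.9 and 12.3 %.

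Since positions selected for a low value in one library tend to be higher in any second measurement, the same shares were taken from the βerko side. Of the 3133 isolated positions below 20 % in βerko MEFs, 38.2 % were not below 20 % in wt MEFs, in comparison to 47.6 % for the direction from wt to βerko. Of the 25755 positions above 80 % in βerko MEFs, 19.8 % were not above 80 % in wt, and in the direction from wt to βerko this was 16.1 %. Unmethylated isolated CpGs of either library were thus often methylated to some extent in the other, and the exchange favoured higher methylation in βerko MEFs.

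**Figure D3:**
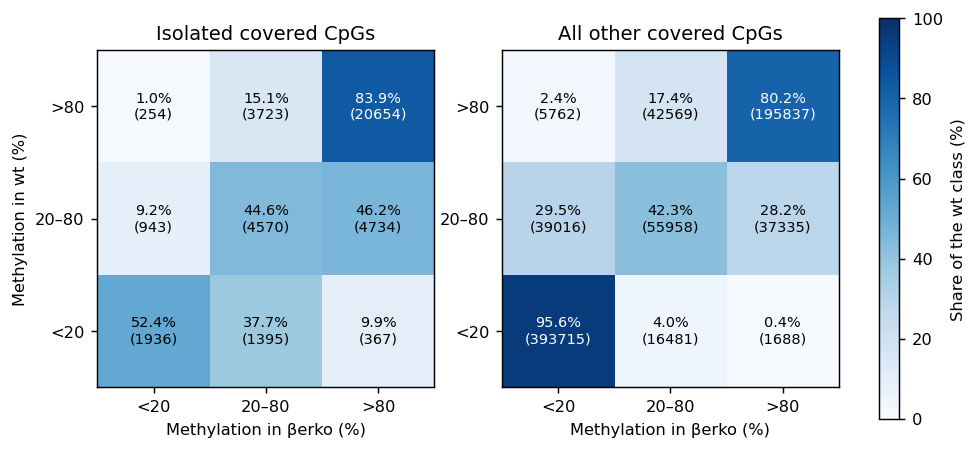
Methylation class in wt MEFs (y axis, percent) against the class in βerko MEFs (x axis, percent) for isolated (left) and other covered positions (right). Colour and upper number give the share of the wt class, and numbers in brackets are positions. Isolated positions below 20 % in wt remained below 20 % in 52.4 % of cases, and the others in 95.6 %. At positions with the nearest covered CpG at 51 to 200 bp, not shown singly, this share was 68.0 %.

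CpGs covered on both strands were used to judge the technical spread, because the strands of a CpG are read from different fragments and maintenance methylation keeps them alike. This was possible for 462 isolated CpGs. The strands differed by a median of 4.88 points in wt and 4.02 points in βerko MEFs, and by more than 20 points at 14.5 % (11.6 to 18 %) and 10.2 % (7.74 to 13.3 %) of CpGs. The libraries differed on the plus strand by a median of 8.06 points and by more than 20 points at 29.9 % (25.9 to 34.2 %), and on the minus strand by 9.25 points and at 33.5 % (29.4 to 38.0 %). Differences between the libraries were therefore larger than those between strands, although strands of a pooled DNA sample do not include the spread between cultures.

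At these CpGs 35 were losses and 67 gains on both strands, 1 had opposite directions, 87 changed on 1 strand only and 272 on neither. Gains represented 65.7 % (56.1 to 74.2 %) of CpGs changed alike on both strands. For other CpGs covered on both strands, 5347 were losses and 1948 gains on both strands. The excess of gains at isolated CpGs was thus also present where 2 measurements of a CpG had to concur. Pearson's coefficient of the differences on the plus and minus strand was 0.807 across the 462 CpGs, whose strands share the pooled DNA and the library.

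**Figure D4:**
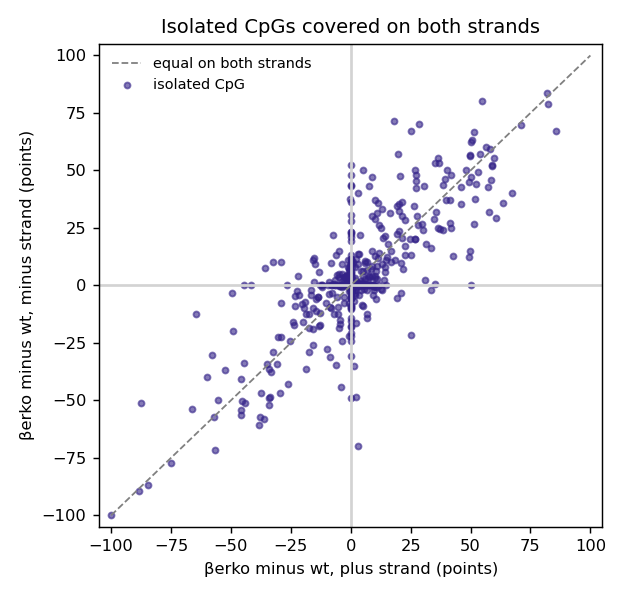
Difference in methylation between βerko and wt MEFs (percentage points) on the plus strand (x axis) and the minus strand (y axis) at 462 isolated CpGs covered on both strands. Each point is a CpG and the dashed line marks equal differences, along which most changed CpGs lie, with 67 CpGs higher and 35 lower by more than 20 points on both strands.

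Read counts were deposited for differentially methylated positions (DMPs), which are below 20 % methylation in one library and above 80 % in the other. With more than 4 reads in both libraries, 244 isolated positions were hypomethylated DMPs (0.633 %, all covered positions 0.7 %) and 359 were hypermethylated DMPs (0.931 %, all covered positions 0.237 %) in βerko MEFs. The ratio was 1.47 hypermethylated per hypomethylated DMP. At the other positions it was the opposite, with 5543 hypomethylated and 1601 hypermethylated DMPs, or 3.46 hypomethylated per hypermethylated DMP. Among these, positions with the nearest covered CpG at 51 to 200 bp had 434 hypomethylated (0.771 %) and 463 hypermethylated DMPs (0.823 %). More hypermethylated than hypomethylated DMPs were thus not limited to isolated positions. These counts are part of the losses and gains above and are not independent of them.

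The median depth of hypomethylated isolated DMPs was 29 reads (wt) and 48.5 reads (βerko), and that of hypermethylated ones 38 and 32 reads. The full range was 5 to 192 reads in wt and 5 to 159 reads in βerko MEFs. Methylated and unmethylated reads were compared by Fisher's exact test (two-sided) with Benjamini-Hochberg adjustment over all 826937 covered positions. In this test 224 hypomethylated DMPs (0.581 % of isolated and 0.642 % of all covered positions) passed an adjusted p-value of 0.05. The same held for 332 hypermethylated DMPs (0.861 and 0.212 %). The same reads define a DMP, so that passing was largely fixed by the definition unless reads were few. The 20 and 27 DMPs that did not pass had few reads, with medians of 6 in wt and 8 in βerko MEFs and of 8 and 10. The test compares the reads of 2 libraries and not the genotypes. Reads were not deduplicated by molecular identifiers, and all intervals cover counting error only.

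Median levels of the 2 libraries (wt, βerko) were 93.9 and 11.1 % at hypomethylated isolated DMPs, and 11 and 90.7 % at hypermethylated ones. Complete loss to 0 % was recorded at 28 hypomethylated DMPs, and complete methylation of 100 % in βerko MEFs at 64 hypermethylated DMPs. Of all 603 isolated DMPs, 602 were at the CpG of an MspI site, as were 99.3 % of all isolated positions. Between genes lay 126 hypomethylated (51.6 %) and 190 hypermethylated DMPs (52.9 %), against 47.6 % of all isolated positions. Introns held 88 (36.1 %) and 130 (36.2 %), against 40.9 %. Their location was thus near that of all isolated positions. In promoters 17 hypomethylated (6.97 %) and 9 hypermethylated DMPs (2.51 %) were found, against 3.24 %. In exons there were 13 (5.33 %) and 30 (8.36 %), against 8.20 %. Hypomethylated DMPs had a median of 6 and hypermethylated DMPs of 4 further reference CpGs within 200 bp, and all isolated positions had 5.

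The 10 hypomethylated isolated DMPs with the smallest p-values were near or within Eif3h, Tbx15, Cpsf3, Fscb, Lrrc23, Dlgap2, Pcgf1, Tshr, Acvrl1 and Vasn/Coro7. The smallest p-value was at chr15:51562854, 134153 bp from Eif3h, which encodes a subunit of a translation initiation factor. Here 121 of 124 reads (97.6 %, exact 95 % interval 93.1 to 99.5 %) were methylated in wt and 17 of 159 (10.7 %, 6.35 to 16.6 %) in βerko MEFs (Fisher's exact test, p = 1.43e-56, adjusted p = 2.36e-51). In an intron of Tbx15, a T-box transcription factor of skeletal development, 67 of 71 reads (94.4 %, 86.2 to 98.4 %) were methylated in wt and 0 of 125 in βerko MEFs (upper limit 2.91 %) at chr3:99065258. Its sequence, shown above, was the only one of the 8 with CpGs beside the MspI site. The nearest covered CpG, 2943 bp away, was also lower in βerko MEFs, by 94.4 points.

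An exonic position of Cpsf3, the endonuclease that cleaves pre-mRNA before polyadenylation, had 100 of 107 methylated reads in wt and 5 of 106 in βerko MEFs. Near Fscb, a gene of the sperm tail, 61 of 64 and 1 of 94 reads were methylated. In the promoter of Lrrc23, which encodes a leucine-rich repeat protein, these were 113 of 118 and 17 of 108 reads. An intron of Dlgap2, a scaffold protein of synapses, had 71 of 73 and 6 of 89 methylated reads. Intervals of the libraries did not overlap at any of these positions, which follows from the DMP definition and the choice by smallest p-value. Pcgf1, a subunit of polycomb complexes, was changed in an intron 622 bp from its start, with 86 of 89 and 12 of 99 methylated reads. The thyrotropin receptor gene Tshr had 69 of 70 and 5 of 81 methylated reads in an intron. An exon of Acvrl1, a type I receptor of the TGFβ family, had 101 of 119 and 19 of 153. Coro7 and Vasn overlap, and their position had 62 of 63 and 10 of 112 methylated reads.

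The 10 hypermethylated isolated DMPs with the smallest p-values comprised 9 CpGs, as Gbas was represented by both strands. In an intron of Dok7, an adaptor protein of the neuromuscular junction, 8 of 165 reads (4.85 %, 2.12 to 9.33 %) were methylated in wt and 101 of 122 (82.8 %, 74.9 to 89.0 %) in βerko MEFs at chr5:35423668 (Fisher's exact test, p = 8.56e-46, adjusted p = 2.72e-41). The nearest covered CpG, 1693 bp away, differed in the opposite direction by -55.9 points. Mup2 had 5 of 125 and 79 of 87 methylated reads in an intron. It belongs to the major urinary proteins, a multigene family of near-identical copies, and its reads may be shared between copies. Near the transcript AK142199 the counts were 15 of 111 in wt and 91 of 91 in βerko MEFs. Gm12508 had 16 of 192 and 67 of 72 methylated reads.

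In an intron of Slc9a3, a sodium-proton exchanger of epithelia, 11 of 116 reads were methylated in wt and 80 of 84 in βerko MEFs. In an intron of Gbas, which encodes a mitochondrial protein, the plus strand had 12 of 96 and 104 of 110 methylated reads and the minus strand 8 of 91 and 87 of 94. Gm2738 had 4 of 88 and 90 of 101 methylated reads. The 2 intergenic positions nearest to LOC638763 and 1700037C06Rik had 16 of 100 and 8 of 70 methylated reads in wt, and each read was methylated in βerko MEFs (80 of 80 and 84 of 84). All 20 named positions were at MspI sites, and 16 of them had no other covered CpG within 1000 bp.

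**Figure D5:**
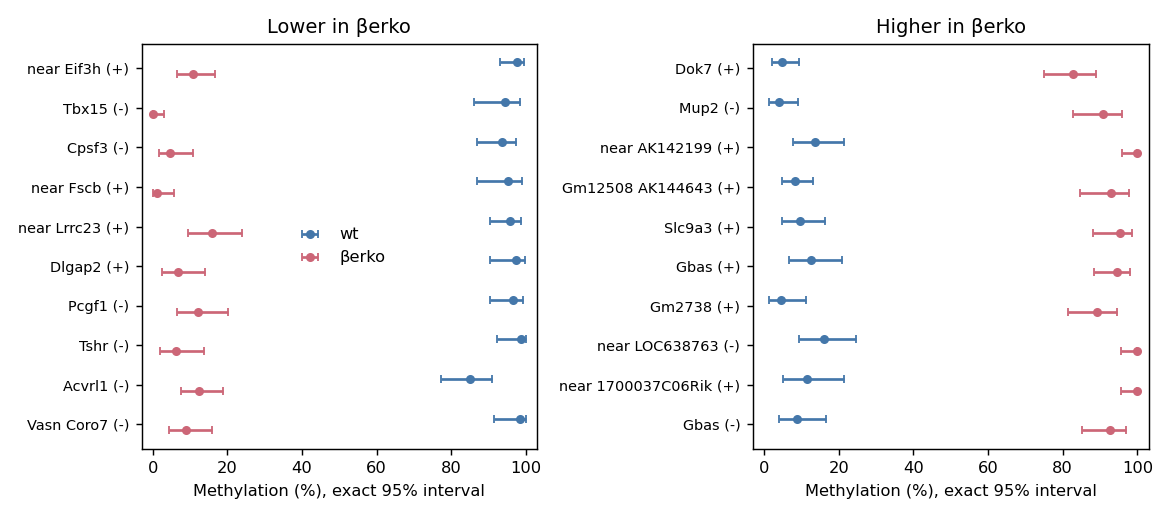
Methylation level (x axis, percent) of the 10 isolated DMPs per direction with the smallest p-values in wt and βerko MEFs, each named by the authors' annotated or nearest gene with its strand. Bars are exact 95 % intervals from the reads of a single library. Those of wt and βerko MEFs are far apart in each row, as the DMP definition and the choice by p-value require.

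Both strands were covered at 7 CpGs with an isolated DMP, 5 of them hypomethylated and 2 hypermethylated. At 5 of these CpGs, in or near Vasn/Coro7, Kcnip2, Slc2a9, Ildr1 and Gbas, both strands were DMPs, so that the definition itself fixes their large differences. At the other 2, only 1 strand was a DMP. The second strand of the CpG of Gpr126 had 100 % in wt and 25 % in βerko MEFs, and that of Apeh 100 and 48.7 %. At Slc2a9, a urate transporter, both strands were at 100 % in wt and 0 % in βerko MEFs. At Kcnip2, a subunit of potassium channels, the strands were at 92.5 and 93.6 % in wt and at 8.05 and 6.90 % in βerko MEFs.

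In contrast, differences at isolated CpGs were weakly related to those at the nearest covered CpG beyond 200 bp. Pearson's coefficient across positions was 0.152 with the neighbour at 201 to 500 bp, 0.078 at 501 to 1000 bp, 0.060 at 1001 to 5000 bp and 0.047 beyond 5000 bp. Neighbours within 1000 bp of hypomethylated isolated DMPs were losses in 33 of 97 cases (34.0 %) and gains in 8. Over all isolated positions with a neighbour at this distance, 12.7 % of neighbours were losses and 13.6 % gains. Neighbours of hypermethylated isolated DMPs within this distance were gains in 32 of 114 cases (28.1 %) and losses in 12. At 1001 to 5000 bp, neighbours of hypomethylated DMPs were losses in 9 of 64 cases (14.1 %) and gains in 10. Those of hypermethylated DMPs were gains in 24 of 104 cases (23.1 %) and losses in 14. Over all isolated positions with a neighbour at 1001 to 5000 bp, 11.9 % of neighbours were losses and 13.3 % gains. With the neighbour beyond 5000 bp the same direction was seen in 9 of 83 and 22 of 141 cases (10.8 and 15.6 %) and the opposite direction in 10 and 19. These shares were near those over all isolated positions with such a distant neighbour, 11 % losses and 13.6 % gains. Neighbouring positions share the pooled DNA and the library.

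Isolated positions in genes of defined groups were then described, beside the shares over all isolated positions of 11.9 % losses and 16.7 % gains. In a list of 13 genes, most of which the study had examined singly, all genes contained isolated positions. Of 71 positions, 10 were losses (14.1 %) and 12 were gains (16.9 %), with a median difference of 0. Nav2 (18 positions), Sorcs2 (15) and Sfmbt2 (3) are in the list but are not named in the text of the study. The genes examined by the study were chosen on these samples, so the list is not independent of them. Fstl4, encoding a follistatin-like protein, had a hypermethylated DMP in an intron, 316 bp from the start of the gene model Gm11186, with 2 of 64 methylated reads in wt and 52 of 54 in βerko MEFs (adjusted p = 3.53e-25 by Fisher's exact test). The nearest covered CpG, 5598 bp away, differed in the opposite direction by -76.8 points. An exonic position of Hoxd9 was hypomethylated, with 33 of 36 and 15 of 81 methylated reads (adjusted p = 1.02e-11 by Fisher's exact test). Nav2, a gene of neurite outgrowth, had a hypomethylated DMP in an intron with 47 of 48 and 1 of 27 methylated reads (adjusted p = 3.49e-15 by Fisher's exact test). A second position, assigned to Nav2 by the authors' annotation, was intergenic in the GENCODE models. It met the definition of a hypermethylated DMP with 1 of 6 and 6 of 7 methylated reads, and did not pass Fisher's exact test (adjusted p = 1). The single isolated positions of Dyx1c1 and Tnfaip2 were a gain with 27.7 % in wt and 63.6 % in βerko MEFs and a loss with 95.8 and 73.1 %. They are not the positions that the study examined in the promoter regions of these genes. There it reports the opposite directions, lower methylation of Dyx1c1 and higher methylation of Tnfaip2 in βerko MEFs.

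The Hox genes specify position along the body axis, and isolated positions were covered in 3 genes of the posterior Hoxa group. In Hoxa9 an exonic position had levels of 0 % (wt) and 64.1 % (βerko), and an intronic position 4.11 and 43.6 %. The single positions of Hoxa10 and Hoxa11 had 0.70 and 57.8 % and 0 and 63.6 %. All 4 were thus gains, in the opposite direction to Hoxd9. They did not reach 80 % and were not DMPs, so the depth behind these values is unknown and no test was made.

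Among 39 ligands and receptors of axon guidance, 32 had isolated positions, of which 29 of 187 were losses and 29 gains (15.5 % each). Ephb1, an ephrin receptor, had 21 isolated positions with 4 losses and 9 gains and means of 52.7 % in wt and 63.8 % in βerko MEFs. The only DMP was in an intron of Ntn1, which encodes a secreted guidance cue, with 1 of 36 and 14 of 16 methylated reads (adjusted p = 1.90e-07 by Fisher's exact test). Of 77 developmental transcription factors outside the Hox clusters, 39 had isolated positions, with 20 losses (13.5 %) and 25 gains (16.9 %) among 148, near the shares over all isolated positions. There were 2 hypomethylated and 4 hypermethylated DMPs, all of which passed the test, as against 0.633 and 0.931 % of all isolated positions that were DMPs.

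In this group, Pax5, required for B cells, had an intronic hypermethylated DMP with 2 of 59 methylated reads in wt and 64 of 64 in βerko MEFs. Sox6, a factor of cartilage and muscle, had 9 of 70 and 58 of 61. The LIM homeobox gene Lhx2 had 3 of 24 and 23 of 23, and Prdm16, a regulator of brown fat, 2 of 26 and 19 of 23. The homeobox gene Meis2 was hypomethylated in an intron with 16 of 16 and 3 of 16 methylated reads (adjusted p = 0.000452 by Fisher's exact test), beside Tbx15. Tbx15 contained 2 further isolated positions, one in the promoter with 41.7 % in wt and 0 % in βerko MEFs and one in an intron with 95 and 100 %.

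Losses outnumbered gains in 3 lists. In genes of DNA methylation and demethylation enzymes, 9 of 23 isolated positions were losses (39.1 %) and 2 were gains (8.70 %), with means of 85.6 % (wt) and 71 % (βerko) and a median difference of -2.25 points. Dnmt3a, a de novo methyltransferase, had 7 positions with 4 losses and no gain. The largest difference was in an intron, where 4 of 4 reads were methylated in wt and 0 of 23 in βerko MEFs, and this position did not reach more than 4 reads in wt MEFs. Tet3, which oxidises 5-methylcytosine, had 7 positions with 3 losses, at 100 and 51.7 %, 100 and 40 %, and 45.3 and 13.9 % in wt and βerko MEFs. No position of the list was a DMP at this minimum of reads. The other genes of the list varied. The single position of Tdg was a gain (65.7 and 94.8 %) and that of Tet1 a loss (100 and 69.1 %). Dnmt1 had 1 loss and 1 gain among 5 positions, and the single positions of Dnmt3b and Tet2 were neither.

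In extracellular matrix genes of fibroblasts, 13 of 77 isolated positions were losses (16.9 %) and 3 were gains (3.90 %). The means were 82.9 % (wt) and 78.2 % (βerko) and the median difference was 0. Col5a3 had 3 losses among 6 positions, Col5a1 2 among 7 and Col4a2 2 among 9. Eln, encoding elastin, had 2 gains among 8 positions. In the fibroblast markers, some of which are also in the matrix list, 3 of 17 isolated positions were losses (17.6 %) and 1 was a gain (5.88 %). A comparison of these lists with other genes was not tested, and they hold few positions.

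Oestrogen receptors and the related orphan receptors had 25 isolated positions with 4 losses and 4 gains (16 % each). Esrrb, an orphan receptor of pluripotent cells, had 3 of these gains, at 20 and 100 %, 22.6 and 95 %, and 40 and 85.7 % in wt and βerko MEFs. It also had 1 loss, at 36.4 and 0 %, and 3 positions within 20 points. At Esr2, which was disrupted in βerko MEFs (chr12:77221406-77278246), 3 of 33 covered positions in the gene or within 5000 bp were isolated. The exonic position chr12:77222852 had 100 % methylation in both libraries. The intronic position chr12:77234645 had 51.6 % in wt and 95.2 % in βerko MEFs. The intergenic position chr12:77282489 had 96.4 and 97.8 %. Accordingly, 1 of 3 was a gain, and none was a DMP.

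In the pluripotency markers, 3 of 6 isolated positions were gains and none was a loss, and all gains were in 1 gene. Lin28a, an RNA-binding protein of pluripotent cells, had 3 exonic isolated positions, all of which were gains, at 16.0 and 90.7 %, 53.9 and 83.3 %, and 14.8 and 60.0 % in wt and βerko MEFs. The first was a hypermethylated DMP with 4 of 25 and 39 of 43 methylated reads (adjusted p = 1.21e-07 by Fisher's exact test). The other members were Dppa4, with means of 94.1 and 86.7 % over 2 positions, and Zfp42, with 100 % in both libraries. Of the fibroblast markers, Thy1 had means of 96.4 and 85.3 % over 2 positions with 1 loss, Col1a2 95 and 71.9 % and Fn1 46 and 23.4 % at single positions, both losses. The gain was in Col1a1, with means of 50.3 and 66.7 % over 3 positions. The authors' annotation assigned a hypermethylated DMP on chromosome 9 to Thy1 and Pdzd3, with 2 of 58 and 54 of 67 methylated reads (adjusted p = 1.96e-17 by Fisher's exact test). It was intergenic in the GENCODE models. Isolated positions in blood and endothelial marker genes (11 positions) had 1 loss and 2 gains, and those in epithelial marker genes (6 positions) had none.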

How the data were processed

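RRBS was performed by the authors on 1 library of wt and 1 of βerko MEFs, each from 3 pooled batches of DNA. Per the labels, CASAVA 1.4 and mm9 were used, and reads were mapped with the Genomatix Mining Station, whose version is not given in the sources used here. The authors deposited the percent methylation of each position covered in both libraries, without coverage, and read counts per library at DMPs with their annotation. Depth is hence unknown elsewhere, and the planned test of all positions was not run.

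All 826937 positions were checked to be CpG cytosines of NCBIM37. Minus strand positions were shifted by 1 bp to merge strands. Features came from GENCODE vM1. Methylated reads, percent multiplied by coverage, were whole within 0.05 at 100 % of DMPs. Fisher's exact test was adjusted with untested positions at p = 1, and the largest p-value called was 0.000427. Named were the 10 isolated DMPs per direction with the smallest p-values, isolated DMPs in listed genes and isolated positions at Esr2. Other values named in the lists were chosen after they had been seen. Members and lists were chosen with earlier results of these data known. Calculations used Python 3.11.15, NumPy 2.4.6, pandas 2.3.3, SciPy 1.17.1 and matplotlib 3.10.9. On simulated data, 317 of 317 isolated positions were found, and 154 of 200 changed and 0 of 19800 unchanged positions were called. The simulated positions were not preselected as DMPs and had binomial read noise only. They give no rate of false calls among the reported DMPs.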

Additional observations from a re-analysis of the deposited data

How the results depend on the processing

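Gains exceeded losses at isolated positions under all 10 alternatives, 2 of which (MspI sites only, positions outside promoters) were chosen after seeing the data. Some alternatives hold nearly the same positions, as MspI sites only with 99.3 % of them, and could hardly differ. With an isolation distance of 100, 500 and 1000 bp, gains made up 56.4, 59.3 and 60.0 % of changed positions, and the shares above 80 % methylation were 63.2, 64.9 and 65.3 % in wt and 65.6, 68.2 and 68.8 % in βerko MEFs. Gains made up 59.7 % with a difference over 50 points and 64.6 % at CpGs covered on both strands. With cut-offs of 10 and 90 %, 54.1 % of positions in wt and 57.1 % in βerko MEFs were above the upper cut-off, and 70 hypomethylated and 81 hypermethylated DMPs remained, of which 66 and 77 passed Fisher's exact test. At 100 bp there were 71055 isolated positions, with 479 hypomethylated and 622 hypermethylated DMPs, of which 443 and 573 passed, and at 1000 bp 147 hypomethylated DMPs, of which 134 passed. With at least 20 reads there were 156 and 234 DMPs. With promoters from 1000 bp before to 500 bp after the TSS, 6.98 % of isolated positions were in promoters. At all other CpGs covered on both strands, the strands differed by more than 20 points at 8.81 % in wt and 7.70 % in βerko MEFs. Of 89 alternative values, 60 were similar, 29 moved and 0 reversed. The similar values include the adjusted p-values of the 20 named positions. They also include mean differences, which counted as similar within the standard deviation across isolated positions (24.9 points), a wide limit. All 20 named positions also passed when only positions with read counts were adjusted for, a change that can only lower an adjusted p-value. No paired analysis was possible because each cell type had a single library. Leaving out a library was not possible for the same reason. Depth at positions other than DMPs is unknown, so that small numbers of reads there limit each single value.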

Other observations

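Genes with at least 10 isolated positions allow a view of methylation along a gene outside its dense part. These genes were listed after the values had been seen, and the positions of a gene are not replicates. Of 181 such genes, 111 had a mean difference above 0, and the median of the mean differences between βerko and wt MEFs was 2.61 points. Ntrk2, the receptor of brain-derived neurotrophic factor, had the highest value, with means over 11 isolated positions of 43.2 % in wt and 70.8 % in βerko MEFs. Camta1, a calmodulin-binding transcription activator, had 31 isolated positions with means of 54.8 and 74.5 %. The lowest value was that of 1700112E06Rik, with 93.6 and 72.9 % over 10 positions, 5 of which were losses and none gains. Zmynd8, a chromatin reader, had 75 and 58.2 % over 10 positions with 4 losses, and Cacna1i, a calcium channel subunit, 77.6 and 64.2 % over 18 positions with 5 losses and 1 gain.

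The level in βerko MEFs was also compared with the starting level in wt MEFs. Isolated positions between 20 and 30 % in wt had a mean of 51.6 % in βerko MEFs, whereas the other covered positions of this class had 24.8 % and those with the nearest covered CpG at 51 to 200 bp had 47.6 %. Isolated positions between 90 and 100 % in wt had a mean of 91.7 % in βerko MEFs, the other covered positions 89.0 % and the spaced ones 90.8 %. Selection by the wt value moves the mean of the second library towards the mean of the whole set, which differed between the sets, and its part in these values was not tested.

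At the 937 isolated positions with at least 15 further reference CpGs within 200 bp, 123 losses and 56 gains were counted, and the means of wt and βerko MEFs were 52.6 and 48.9 %.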
